A study of Mus musculus with 11 samples.

Results

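The mitochondrial genome encodes a small set of respiratory chain subunits, and 10 of these genes are described here in the mouse eye: mt-Nd1, mt-Nd2, mt-Nd4, mt-Nd5 and mt-Nd6 of complex I, mt-Cytb of complex III, mt-Co1, mt-Co2 and mt-Co3 of complex IV, and mt-Atp6 of complex V. They were taken by name, each symbol matching 1 gene identifier, and are 10 of the 38392 genes in the files and of the 15767 genes with enough counts to be tested. RNA was sequenced from 5 wild type (WT) and 6 miR-211-/- (KO) eyes of C57BL/6 mice aged 1 to 2 months. The eyes held retina, RPE, choroid, sclera and ciliary body, and lens and cornea had been dissected away. In the KO line the precursor of miR-211, a microRNA that lies within an intron of Trpm1, was deleted by homologous recombination. All KO animals were males, whereas the WT group held both sexes. The values of Xist, an X-linked RNA of female cells, were at least 794 CPM (counts scaled to a common library size) in 3 WT libraries and at most 1.29 CPM in the other 8 libraries, so that sex and genotype cannot be fully told apart.

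The respiratory chain passes electrons from NADH and succinate to oxygen through complexes I to IV, and complex V uses the resulting proton gradient to make ATP. Complexes I, III, IV and V each hold some membrane subunits that are made inside the mitochondrion from the mitochondrial genome, and their other subunits are nuclear-encoded and imported. Complex II is wholly nuclear-encoded. The mitochondrial genome is read as long precursor RNAs from both strands, which are cut at the tRNAs that lie between most genes. Photoreceptors hold densely packed mitochondria in their inner segments, and skeletal muscle fibres, such as those of the eye muscles, are also rich in them. The paper names no muscle among the tissues of the samples.

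The libraries held 20282241 to 36317673 assigned read pairs. The 10 genes drew 890485 to 2203907 counts per library and no gene fell under 14085 counts in any library, so that counting error is small beside the spread between animals. The labels name no batch. The columns of a table in the study name 5 of the animals by mouse number (WT 1, WT 2, KO 1, KO 2 and KO 3) and 6 by age (WT 3, WT 4, WT 5, KO 4, KO 5 and KO 6), and these are called the mouse-number and the age series below. What else sets them apart is not known. The markers of rods (summed level 28608 to 44979 CPM over 10 genes), cones and RPE were present in every library. Lens genes, which should have been removed, took 12.3% of the counts of WT 4, 2.67% of KO 3, 0.35% of KO 6 and at most 0.0125% elsewhere. Mir211 itself was listed at 0 in all 11 libraries, WT included, and cannot check the labels. Its host gene Trpm1 was at 330 to 494 CPM.

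The 10 genes took 3.66% to 7.17% of all counts of a library. In the mouse-number series the shares were 7.17% and 7.06% in the WT libraries and 6.63%, 6.07% and 5.17% in the KO libraries. In the age series they were 4.17%, 4.38% and 4.98% in WT and 4.45%, 3.66% and 4.66% in KO. Every mouse-number library thus lay above every age library, and within the mouse-number series both WT libraries lay above all 3 KO libraries, whereas in the age series the genotypes overlapped. By genotype the WT libraries averaged a share of 5.55% ± 1.46 (SD, n = 5), and the KO libraries one of 5.11% ± 1.09 (SD, n = 6). By series it was 6.42% ± 0.82 (SD, n = 5) against 4.38% ± 0.45 (SD, n = 6). No test was run on this sum, since the genes were chosen with results of these data known. Outside the lens genes the share of WT 4 was 4.99%, and the series remained apart (5.31% to 7.17% against 3.66% to 4.99%). As a share of the sum of FPKM (levels per transcript length, explained below) the series overlapped, at 11.1% to 15.0% against 7.77% to 11.7%.

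**Figure D1:**
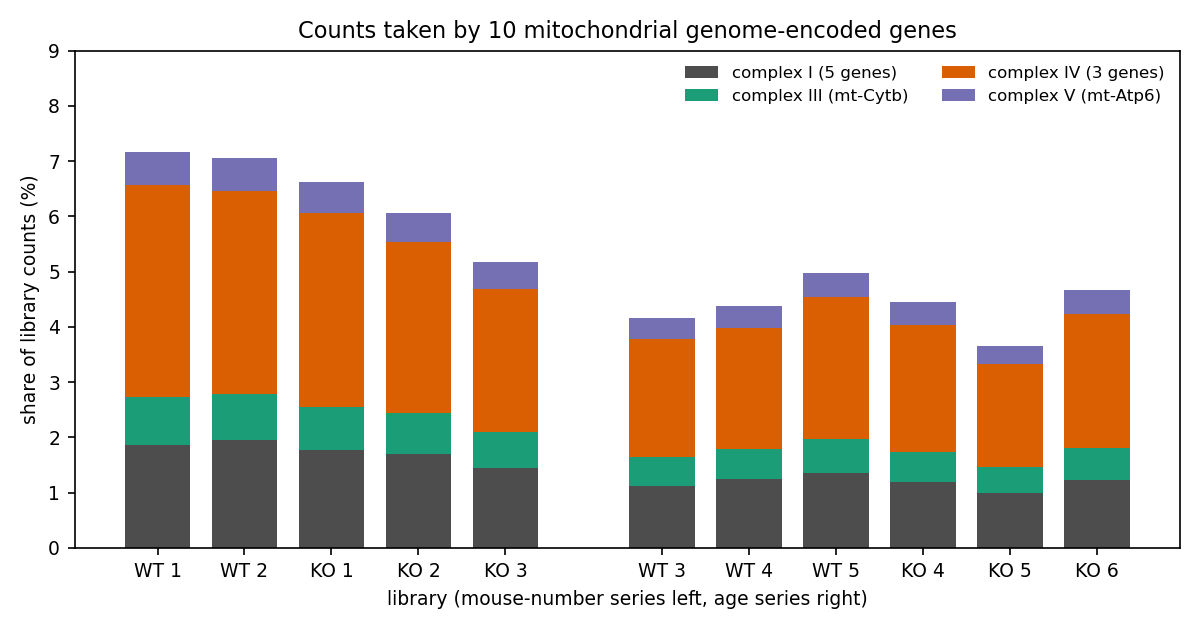
Share of each library's counts (%, y axis) taken by the 10 genes in the 11 libraries (x axis, mouse-number series left, age series right), stacked by respiratory complex. The 5 mouse-number libraries reach 5.17% to 7.17% and the 6 age libraries 3.66% to 4.98%, and complex IV genes take the largest part in every library.

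Levels of different genes are compared per length, in FPKM (read pairs scaled to transcript length and library size, as deposited). The order of the mean FPKM over the 11 libraries was mt-Co1, mt-Co2, mt-Co3, mt-Atp6, mt-Cytb, mt-Nd1, mt-Nd4, mt-Nd2, mt-Nd5 and mt-Nd6. mt-Co1, the catalytic core of cytochrome c oxidase, had 10289 ± 2450 FPKM (SD, n = 11), and mt-Co2, which takes up the electrons from cytochrome c, had 9496 ± 2352. At the other end mt-Nd5 and mt-Nd6, membrane subunits of complex I, had 2015 ± 417 and 1847 ± 399 FPKM. Complex IV genes thus stood at the top and complex I genes at the bottom. Of the 9 neighbouring pairs in this order, 3 differed in their means by more than both SDs (mt-Atp6 and mt-Cytb, mt-Cytb and mt-Nd1, mt-Nd4 and mt-Nd2). Within single libraries the order was nevertheless the same: 8 of the 9 pairs kept it in 11 of 11 libraries, and mt-Co1 was above mt-Co2 in 10, the exception being KO 3 with 9190 FPKM of mt-Co1 and 9920 of mt-Co2.

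The parts that the genes took of their common sum of FPKM varied little beside their levels. mt-Co1 made up 18.7% ± 0.72 (SD, n = 11) of it, mt-Co2 17.2% ± 0.51, mt-Co3 15.2% ± 0.62, mt-Atp6 13.8% ± 0.50 and mt-Cytb 10.9% ± 0.26, and the 5 complex I genes took between 3.38% (mt-Nd6) and 6.64% (mt-Nd1) each. For 9 of the 10 genes these parts overlapped between the series. The exception was mt-Co2, with 17.4% to 18.3% in the mouse-number series and 16.5% to 17.3% in the age series. Between the genotypes the parts of all 10 genes overlapped.

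Among the complex I genes of the set described here, mt-Nd2, a proton-pumping membrane subunit, varied the most between the series. Its level was 3278 and 3507 CPM in the mouse-number WT libraries, 3097, 2880 and 2479 in the mouse-number KO libraries, 1623, 2413 and 2137 in the age WT libraries and 1835, 1519 and 1906 in the age KO libraries (CPM here and below are on TMM-scaled library sizes). mt-Nd1, where ubiquinone is bound, was at 4038 and 4389, then at 4138, 3810 and 3467, then at 2399, 3211 and 2916, and then at 2680, 2260 and 2797 CPM in the same order of groups. For both genes all 5 mouse-number libraries lay above all 6 age libraries, and KO and WT overlapped. mt-Nd4, another proton-pumping subunit, was at 5815 and 5944 CPM in the mouse-number WT libraries and at 5367, 4927 and 4227 in the KO libraries of that series, followed by 3264, 4347 and 3847 in age WT and 3421, 2938 and 3572 in age KO. mt-Nd5, the largest of these genes, was at 4331 and 4749, at 4415, 4192 and 3388, at 2882, 3589 and 3641, and at 2791, 2281 and 3076 CPM. Here KO 3 fell among the age libraries, below WT 4 in both genes.

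mt-Nd6 is the one member on the opposite strand of the genome. Its level was 1045 and 1184 CPM in mouse-number WT, 990, 1057 and 876 in mouse-number KO, 636, 919 and 814 in age WT, and 697, 552 and 700 in age KO. The series overlapped at KO 3 and WT 4. The strand shows in its base composition: G made up 28.1% of the bases of mt-Nd6 and at most 16.1% of those of the other 9 members, while C made up 5.97% against 23.8% to 27.7%. The first 60 bases of mt-Nd6 (chrM:14011-14070, minus strand) and of its neighbour mt-Cytb (chrM:14145-14204, plus strand) are shown with G in capitals to make this visible, from the Gencode transcripts on GRCm38.
mt-Nd6: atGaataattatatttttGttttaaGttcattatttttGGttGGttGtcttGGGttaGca
mt-Cytb: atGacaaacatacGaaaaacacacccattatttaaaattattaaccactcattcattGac
The authors ran RSEM with its standard settings, under which the strand of the reads is not used, so that RNA antisense to mt-Nd6 cannot be told apart from its mRNA. The ratio of mt-Nd6 to mt-Nd5, its overlapping neighbour on the other strand, was 0.934 ± 0.0515 in the mouse-number series and 0.902 ± 0.0556 in the age series (ratio of FPKM, SD, n = 5 and n = 6).

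mt-Cytb, the cytochrome b of complex III, was at 8647 and 8493 CPM in mouse-number WT, at 7951, 7374 and 6703 in mouse-number KO, at 4906, 6268 and 5960 in age WT and at 5260, 4439 and 5533 in age KO. mt-Atp6, the complex V subunit that forms the proton path to the rotor, was at 5967 and 6123, at 5834, 5274 and 4791, at 3615, 4490 and 4392, and at 3986, 3246 and 4189 CPM. In both genes the series did not overlap, and within the mouse-number series both WT libraries were above the 3 KO libraries.

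The complex IV genes had the highest levels per length (above), and of the 10 genes mt-Co1 also had the highest CPM. mt-Co1 was at 21257 and 20696 CPM in mouse-number WT, at 19947, 16884 and 13749 in mouse-number KO, at 11667, 14435 and 14395 in age WT and at 12713, 10060 and 13294 in age KO. mt-Co2 was at 8257 and 8163, at 7622, 6857 and 6263, at 4476, 5439 and 5232, and at 4743, 3846 and 5003 CPM. mt-Co3, the subunit beside the catalytic core, was at 8809 and 8367, at 8019, 7164 and 5965, at 4433, 5537 and 5621, and at 4693, 3786 and 5368 CPM. mt-Co2 and mt-Co3 did not overlap between the series, whereas in mt-Co1 KO 3 lay below WT 4 and WT 5. WT 1 or WT 2 was the highest library for all 10 genes and KO 5 the lowest for all 10.

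**Figure D2:**
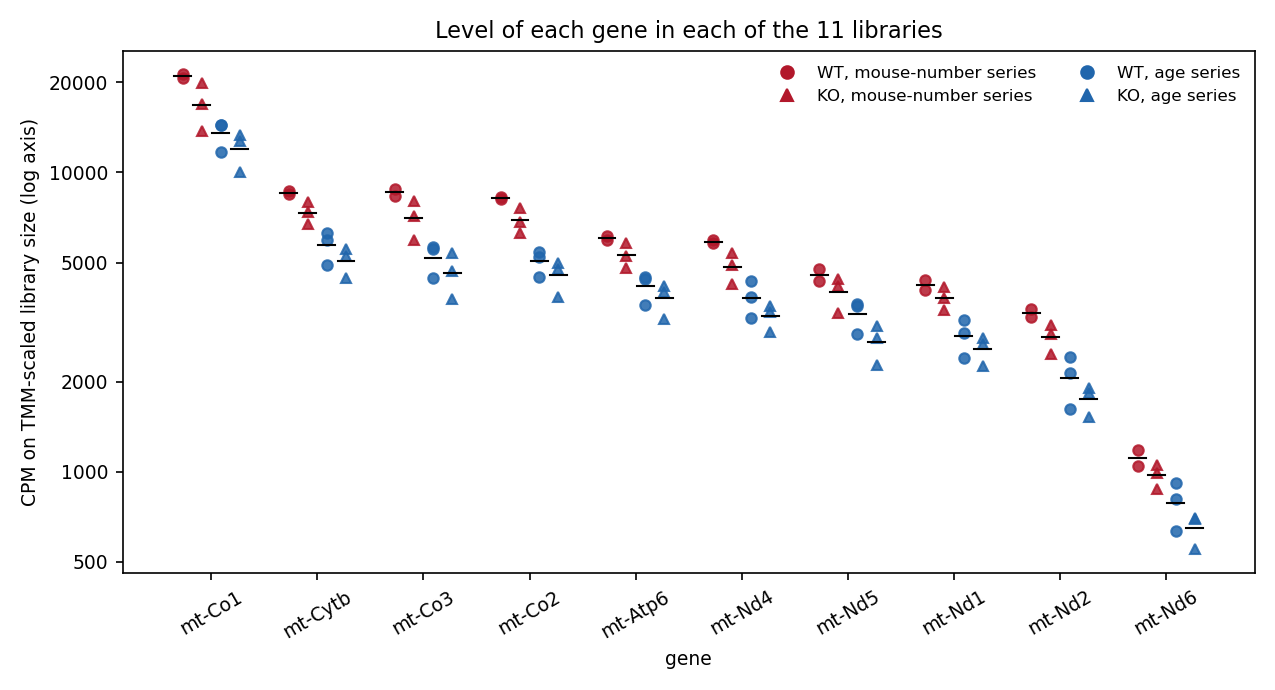
Level of each of the 10 genes in each of the 11 libraries (y axis, CPM on TMM-scaled library sizes, log axis), with WT as circles, KO as triangles, the mouse-number series in red and the age series in blue; black bars are the means of the 4 groups. In every gene the 4 means fall from mouse-number WT to mouse-number KO, age WT and age KO, with WT 1 or WT 2 on top and KO 5 at the bottom.

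The comparison that the study was made for, KO against WT, gave no change in these genes that passed the test. edgeR's likelihood-ratio test with Benjamini-Hochberg adjustment over all genes called 0 of the 10 genes at an adjusted p under 0.1, against 0.00634% of all genes, which is Xist alone. The paper, also with edgeR and at this threshold, reports more genes than were called here, nearly all of them lower in KO. An unadjusted p under 0.05 was reached by 0 of the 10 (330 of the 15767 genes, 2.09%), and edgeR's quasi-likelihood test and DESeq2 also called 0 of the 10. All 10 values were below 0, from -0.19 to -0.09 on the log2 scale with a median of -0.17, beside a median of 0.00 and 48.9% of values below 0 over all genes. For mt-Nd5 the log2 fold change was -0.19 ± 0.24 (SE, 95% interval -0.67 to 0.28), from 3838 ± 723 CPM in WT to 3357 ± 822 in KO. For mt-Co1 it was -0.19 ± 0.27 (-0.72 to 0.34), and for mt-Nd1, the smallest, -0.09 ± 0.25 (-0.57 to 0.40). All 10 intervals reached from below to above 0. Exact permutation tests of the log2 CPM over all 462 splits into 5 and 6 libraries (two-sided) gave p from 0.31 (mt-Nd5) to 0.682 (mt-Nd1). In 0 of the 10 genes were all KO libraries below all WT libraries, which held for 0.0761% of all genes.

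With the library series as a covariate the estimates moved further down, but the test still called 0 of the 10 genes (0.0634% of all genes, 10 genes, were called), and 0 of them had an unadjusted p under 0.05 (6.57% of all genes). The log2 fold changes then ran from -0.25 (mt-Nd5, ± 0.21 SE) to -0.14 (mt-Nd1, ± 0.20 SE), with a median of -0.23, and the lowest adjusted p was 0.819 (mt-Nd6). The quasi-likelihood test with this covariate gave 6 of the 10 genes an unadjusted p under 0.05, namely mt-Nd2, mt-Nd4, mt-Nd5, mt-Nd6, mt-Co2 and mt-Cytb, against 7.95% of all genes, with adjusted p of 0.59 or above. When genotypes were exchanged only within the series, 200 splits, the exact two-sided p ran from 0.04 (mt-Nd4) to 0.14 (mt-Nd1), unadjusted, where the smallest possible is 0.005. Within the mouse-number series alone all 3 KO libraries were below both WT libraries in 7 of the 10 genes, against 10.7% of all genes. Within the age series this was so in 0 of the 10 genes, against 5.98%. The 10 genes rose and fell together, with WT 1 or WT 2 highest and KO 5 lowest for all 10. Counts of them, here and in the other comparisons, are thus not counts of separate observations. Fits within the mouse-number and within the age series gave medians of -0.24 and -0.17. The interaction of genotype and series, the test of whether the KO against WT difference itself differed, called 0 of the 10 genes (0.019% of all genes) by edgeR, 0 with an unadjusted p under 0.05 (2.71% of all genes), and 0 by the quasi-likelihood test.

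The size of the KO against WT difference moved by over 1.5 times with single libraries. The median log2 fold change of the 10 genes was -0.06 without WT 1 or without WT 2, -0.08 without KO 5, -0.28 without WT 3 and -0.26 without KO 1, and without WT 2 the value of mt-Nd1 was 0.023.

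**Figure D3:**
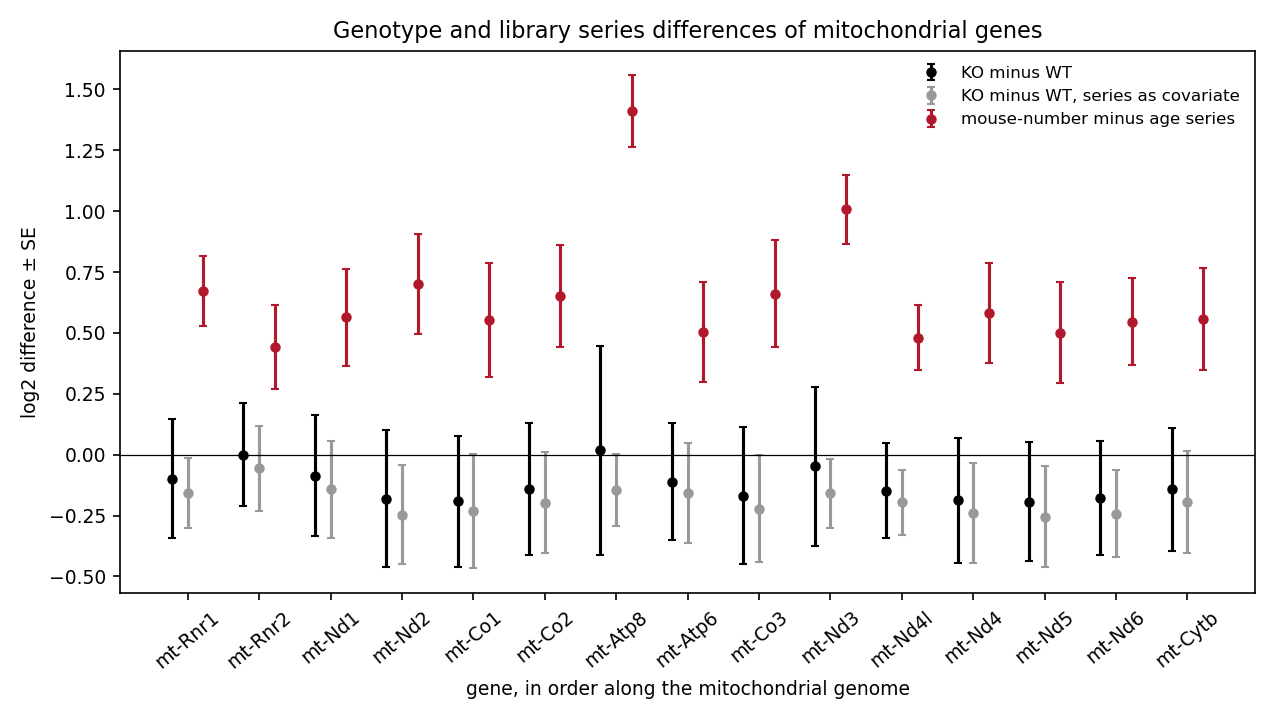
Log2 difference ± SE (y axis) of the 10 members and 5 other genes of the mitochondrial genome, in their order along it (x axis), for KO minus WT without (black) and with the series as a covariate (grey), and for the mouse-number minus the age series (red). The KO minus WT values of the members lie between -0.25 and -0.09, and the series values between 0.50 and 0.70, with mt-Atp8 and mt-Nd3 above them.

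The second comparison, between the library series in a fit with genotype, gave a rise in the mouse-number series for every member. All 10 genes were called higher (adjusted p 0.00424 to 0.0568, edgeR's likelihood-ratio test) and 0 lower, against 36.3% of all genes called and 21.7% called higher (an unadjusted p under 0.05 was reached by 10 of the 10 and by 39.4% of all genes), so that the series differed in many genes beside the members. Their log2 differences ran from 0.50 (mt-Nd5) to 0.70 (mt-Nd2), with a median of 0.56 beside 0.00 over all genes. mt-Nd2 averaged 3048 ± 393 CPM (SD, n = 5) in the mouse-number series and 1906 ± 330 (SD, n = 6) in the age series, a log2 difference of 0.70 ± 0.20 (SE) or 1.63-fold. mt-Co3 averaged 7665 ± 1126 and 4906 ± 728 CPM (0.66 ± 0.22), and mt-Co2 7432 ± 859 and 4790 ± 575 CPM (0.65 ± 0.21). mt-Nd1, mt-Nd2, mt-Co2, mt-Co3, mt-Cytb and mt-Atp6, 6 of the 10 genes, did not overlap between the series, against 4.9% of all genes in which all mouse-number libraries were above all age libraries.

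The calls nearest to the threshold were those of mt-Co1, mt-Nd5 and mt-Atp6. mt-Co1 and mt-Nd5, with adjusted p of 0.0568 and 0.0539 (edgeR), each lost the call in 6 of the 11 fits that left out a library. mt-Atp6 (0.0477) lost it in 4 and mt-Cytb in 1. Without KO 5 there were 6 of the 10 genes called, against 4333 of 15716 genes called, 2745 of them higher. In the KO libraries alone 8 of the 10 genes were called higher (mt-Co1 and mt-Atp6 were not), against 28.2% of all genes called in either direction and 16.9% called higher, and 9 of the 10 had an unadjusted p under 0.05 (33.4% of all genes). In the 5 WT libraries alone 0 of the 10 genes were called (edgeR's likelihood-ratio test, 0 with an unadjusted p under 0.05, against 12% of all genes) beside 1.7% of all genes called and 1.45% called higher, although the log2 differences, 0.43 to 0.72, were as large. Within WT and within KO each of the 10 genes was higher in all mouse-number than in all age libraries, which held for 19.5% and 24.1% of all genes.

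The other transcripts of the mitochondrial genome also differed between the series, but not by the same amount. mt-Atp8, a small subunit of complex V, was at 808 and 875 CPM in mouse-number WT, 810, 861 and 715 in mouse-number KO, 311, 350 and 332 in age WT and 313, 253 and 300 in age KO. Its log2 difference between the series was 1.41 ± 0.15 (SE, adjusted p 2.82e-18). mt-Nd3, a small subunit of complex I, differed by 1.01 ± 0.14, mt-Rnr1 and mt-Rnr2, the ribosomal RNAs, by 0.67 ± 0.14 and 0.44 ± 0.17, and mt-Nd4l by 0.48 ± 0.13. All 5 were called, and 0 of them differed between KO and WT (log2 -0.15 to 0.02). Per length the mitochondrial rRNAs were at 154 to 549 FPKM, under the lowest value of any of the mitochondrial mRNAs (717 FPKM, mt-Nd4l), and the 22 tRNA genes of the mitochondrial genome were at 0 in all libraries.

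mt-Atp8 and mt-Atp6 lie on one bicistronic mRNA, and their reading frames overlap. mt-Atp8 spans 204 bases (chrM:7766-7969) and mt-Atp6 681 bases (chrM:7927-8607), both on the plus strand and exonic, and the 43 shared bases are shown because they bear on how reads are shared out between the genes, with the start codon of mt-Atp6 in capitals (chrM:7927-7969, GRCm38).
mt-Atp8 and mt-Atp6 overlap: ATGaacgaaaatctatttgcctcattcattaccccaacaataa
The FPKM of mt-Atp8 was 0.555 and 0.597 times that of mt-Atp6 in the mouse-number WT libraries and 0.588, 0.695 and 0.629 times in the KO libraries of that series. In the age series the ratios were 0.361, 0.327 and 0.32 in WT and 0.331, 0.326 and 0.303 in KO. The ratio thus separated the series without overlap in both genotypes, by 0.90 on the log2 scale (two-sided exact permutation test over 462 splits, p = 0.00216, the smallest possible, adjusted over 4 ratios 0.00433). Exchanging series only within genotype gave an exact p of 0.005 (adjusted 0.02). The 4 ratios were not among the planned tests. They use the same values as the series differences of mt-Atp8 and mt-Nd3 above, so their p-values are no independent support for those. KO and WT overlapped within the series (exact permutation p = 0.64). The number of bases that RSEM took off the 204 of mt-Atp8 to get its effective length, recovered from the expected count and FPKM, was 49.8 to 57.9 in the mouse-number and 54.1 to 56.7 in the age libraries and did not separate them. Those numbers of bases lie below the read length that the paper gives, so they cannot be taken as lengths of the sequenced fragments. How many of the reads of the shared bases RSEM gave to each gene cannot be read from the files.

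A second ratio behaved in the same way. mt-Nd3, of 348 bases, was at 0.17 to 0.215 times the FPKM of its neighbour mt-Co3 in the mouse-number and at 0.131 to 0.166 times in the age libraries (log2 difference 0.35, exact p = 0.00216, adjusted 0.00433). The ratios of mt-Nd4l, of 297 bases, to mt-Nd4 overlapped (0.272 to 0.318 and 0.296 to 0.344, log2 difference -0.10, exact p = 0.0801), as did those of mt-Nd6 to mt-Nd5 (0.05, exact p = 0.34). Of the 3 shortest of these genes, mt-Atp8 and mt-Nd3 but not mt-Nd4l were thus higher in the mouse-number series relative to their neighbour.

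**Figure D4:**
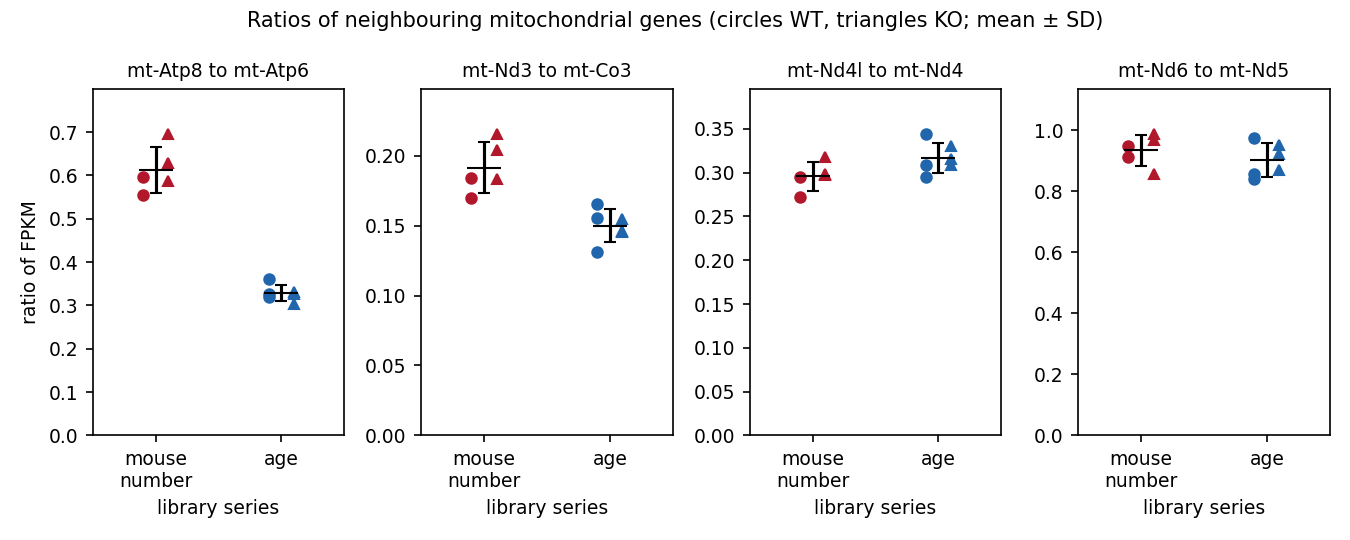
Ratio of the FPKM of 4 pairs of neighbouring mitochondrial genes (y axes, starting at 0) in the mouse-number and the age libraries, WT as circles and KO as triangles, with mean ± SD. mt-Atp8 to mt-Atp6 (0.555 to 0.695 against 0.303 to 0.361) and mt-Nd3 to mt-Co3 do not overlap between the series, and the other pairs do.

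Copies of mitochondrial genes in the nuclear genome can share their reads. The nuclear Gm10222 (chr1:24612407-24612700) has the sequence of the first 294 of the 297 bases of mt-Nd4l with 0 mismatches, and its deposited count was equal to that of mt-Nd4l in 11 of 11 libraries, so that the true level of mt-Nd4l is uncertain. The other annotated copies near it on chromosome 1 (Gm28439, Gm28438, Gm28437, Gm10925, Gm28661 and Gm29216) have no entry among the deposited counts. Of the members, 3, namely mt-Co3 (784 bases, chrM:8607-9390), mt-Nd4 (1378 bases, chrM:10167-11544) and mt-Cytb (1144 bases, chrM:14145-15288), have lengths that are no multiple of 3. Their last 31 bases, which lie in the coding sequence, are shown because the reading frame ends on a single T (capital), to which the poly(A) tail is known to add the missing bases of the stop codon.
mt-Co3 (chrM:9360-9390): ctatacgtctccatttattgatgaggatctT
mt-Nd4 (chrM:11514-11544): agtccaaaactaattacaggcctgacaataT
mt-Cytb (chrM:15258-15288): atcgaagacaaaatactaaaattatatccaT
These 3 genes differed between the series by 0.66, 0.58 and 0.56 on the log2 scale, within the range of the other members.

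The nuclear-encoded subunits of the same complexes were also higher in the mouse-number series. Of 79 nuclear subunits listed, 78 were tested, of which 70 were called higher and 0 lower (89.7% higher, against 21.7% of all genes), with a median log2 difference of 0.50. In complex I 32 of 36 were called higher, in complex II 4 of 4, in complex III 9 of 9, in complex IV 12 of 15 and in complex V 13 of 14. Ndufb9, an accessory subunit of complex I, averaged 106 ± 21.7 CPM in the mouse-number and 66.3 ± 9.16 in the age libraries (log2 difference 0.69 ± 0.13). Uqcrh, the hinge protein of complex III, differed by 0.56 ± 0.11, Ndufa4 of complex IV by 0.44 ± 0.11 and Atp5b, the catalytic beta subunit of complex V, by 0.42 ± 0.17 (adjusted p 0.0513). Cox4i1 was called with 0.28 ± 0.13, and Cox8a with 0.21 ± 0.10 was not (adjusted p 0.101). The largest difference in these lists, chosen here after its values were seen, was that of Cox7a1, the form of a complex IV subunit found in heart and skeletal muscle, with 1.75 ± 0.39 and 9.51 to 47.8 CPM in the mouse-number against 4.09 to 17.2 in the age libraries.

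Between KO and WT the nuclear subunits behaved like the mitochondrial ones: 0 of 78 were called by the likelihood-ratio test (0 by the quasi-likelihood test also), and all 78 values lay below 0, around a median of -0.18 (log2). Sdha, the flavoprotein of complex II, was at 384 ± 66.6 CPM in WT and 353 ± 41.2 in KO (-0.12 ± 0.16), and Atp5a1, the alpha subunit of complex V, at 778 ± 189 and 697 ± 114 (-0.16 ± 0.21). The levels of the mitochondrial members over the nuclear subunits of the same complex overlapped between the series and between the genotypes. For complex I the ratio of the summed CPM was 5.97 to 7.98 in the mouse-number and 5.27 to 7.2 in the age libraries, for complex III 6.53 to 8.26 and 6.4 to 8.01, for complex IV 19.3 to 25.2 and 17.9 to 24.7, and for complex V 1.32 to 1.64 and 1.27 to 1.67.

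The nuclear genes that copy, transcribe and process the mitochondrial genome were called at a rate near that of all genes. Of 28 such genes 7 (25.0%) were called higher and 1 lower in the mouse-number series, against 21.7% of all genes called higher, with a median of 0.05, and 0 were called between the genotypes. Tfam, which packages the mitochondrial genome and starts its transcription, differed by 0.30 ± 0.08 (adjusted p 0.00252) and was named here after its values were seen, as was Polrmt, the mitochondrial RNA polymerase, the one called lower, with -0.26 ± 0.09. Among the 3 with the highest FPKM, Fastk and Grsf1, RNA-binding proteins of the mitochondrion, were not called (-0.04 ± 0.09 and 0.12 ± 0.08), and Slirp, which binds mitochondrial mRNAs with Lrpprc, was called higher (0.27 ± 0.09). The summed level of the 28 genes was 842 to 903 CPM in the mouse-number and 816 to 888 in the age libraries.

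Markers of muscle moved with the same libraries. The summed level of 13 skeletal muscle markers was 12969 and 11549 CPM in mouse-number WT, 12386, 7206 and 2859 in mouse-number KO, 1559, 7221 and 4150 in age WT and 3460, 1277 and 2763 in age KO. All 13 were called higher in the mouse-number series (median log2 difference 1.56), against 21.7% of all genes. In the WT libraries alone 2 of the 13 were called higher (1.45% of all genes), and in the KO libraries alone 11 of the 13 (16.9%). Of the 13 markers 0 were at 0 in any library. WT 1, WT 2 and KO 1 led both in muscle markers and in the 10 mitochondrial genes, and KO 5 was the lowest in both. KO 3, with 2859 CPM of muscle markers, lay under KO 4 in these and above it in the mitochondrial genes (51909 against 42821 CPM). Between KO and WT 0 of the 13 muscle markers were called, with all 13 values below 0 and a median of -0.57. In these whole-eye samples, more cells of a type and more RNA per cell cannot be told apart.

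Other markers moved in part. Over all genes 36.3% were called between the series and 21.7% called higher in the mouse-number series. Of 6 tested adipocyte markers 6 were called higher in the mouse-number series, with summed levels of 12.9 to 425 against 11.9 to 121 CPM. In the WT libraries alone 0 of 3 tested adipocyte markers were called (1.7% of all genes), and in the KO libraries alone 2 of 3 (28.2% of all genes). Of 5 markers of cornea and conjunctiva 3 were called higher, with 2809 to 8566 against 1142 to 7276 CPM. Rod markers (28608 to 40211 against 33424 to 44979 CPM), RPE markers and blood markers had 0 called, the lens markers 0 of 12, and 1 of the 9 cone markers was called lower. Between KO and WT 0 markers of these lists were called (edgeR). Values below 0 were 6 of 6 for adipocytes (median log2 fold change -1.97), 12 of 12 for lens (-2.27) and 5 of 5 for blood (-0.63). They were 1 of 10 for rods (0.11), 4 of 9 for cones (0.01), 3 of 6 for RPE (-0.02) and 2 of 5 for cornea and conjunctiva (0.14). The WT lens level came almost wholly from WT 4, with 142283 CPM of summed markers against 25.2 to 50.4 in the other WT libraries. In the KO libraries the summed lens markers were at 5.4 to 26780 CPM. With the series as a covariate, 5 of 5 cornea and conjunctiva values were below 0 (median -0.27). The part of these tissues in the series and genotype differences of the mitochondrial genes was not tested.

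**Figure D5:**
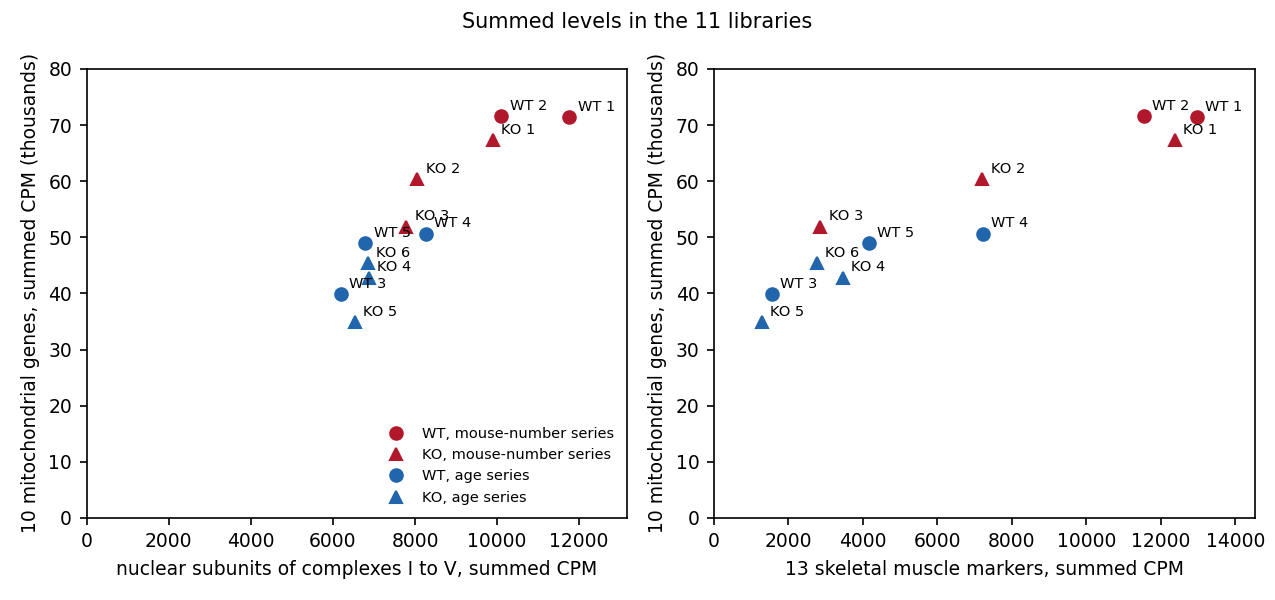
Summed level of the 10 mitochondrial genes (y axes, CPM in the multiples given on the axis) against that of the nuclear subunits of complexes I to V (left) and of 13 skeletal muscle markers (right, both x axes in CPM) in the 11 libraries, WT as circles and KO as triangles, mouse-number series in red and age series in blue. WT 1, WT 2 and KO 1 are highest on all axes; KO 3 has 2859 CPM of muscle markers with 51909 CPM of the mitochondrial genes.

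Outside the mitochondrial genome, the genes whose log2 CPM followed the log2 of the members' summed CPM most closely over the 11 libraries, out of 15752, were Hspa9 (Pearson r = 0.99), Ube2b (0.989), Tcea3 (0.987), Gm10222 (0.985) and Etfdh (0.982). The 2 genes with the lowest correlation were Zfp316 (r = -0.98) and Sema6a (r = -0.977). The libraries share a series, which these values include, and within the 6 age libraries r was 0.968 for Hspa9, 0.992 for Ube2b and -0.918 for Zfp316. Hspa9, the mitochondrial Hsp70 chaperone, was at 206 to 250.3 CPM in the mouse-number and 168 to 212 CPM in the age libraries, a far smaller span than that of the members. Gm10222 is the nuclear copy whose counts equal those of mt-Nd4l, and Etfdh encodes an enzyme that passes electrons from fatty acid oxidation to ubiquinone. The correlations describe how like the levels are over these 11 libraries and were given no test.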

How the data were processed

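RNA from the eyes of 5 WT and 6 KO mice was sequenced by the authors as paired reads (TruSeq RNA libraries). Gene expected counts and FPKM were made by the authors with RSEM 1.2.19 on Gencode annotation of GRCm38 and deposited per library. Expected counts are estimates that share out reads matching several genes. RSEM was run with standard settings, which do not use strand, and the kit's usual protocol selects poly(A) RNA. Gene names, coordinates and sequences were taken from Gencode M21 (GRCm38), which named 95.4% of the identifiers.

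Expected counts were rounded, a gene entered the tests when 5 or more libraries reached 1 CPM, and libraries were scaled by TMM. KO and WT were compared with edgeR (likelihood-ratio test of the generalized linear model, Benjamini-Hochberg adjustment, threshold 0.1), and the library series in the same way with genotype in the fit. Differences of FPKM ratios were tested by exact permutation, which was not among the planned tests. The series were read from column names of a table of the study, matched to libraries by proportional counts, and nothing there says what they stand for. The p-values measure the spread between libraries of separate animals. Named nuclear genes were the 3 with the highest mean FPKM in each list, and genes alike to the members were the 5 highest and 2 lowest correlations. The members and lists were chosen with earlier results of these data known. The scripts were tested on simulated data. Alternatives were the quasi-likelihood test, DESeq2, other scalings and filters, log2(FPKM + 1) with limma, a replicate block, the series as a covariate and leaving out libraries.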

Additional observations from a re-analysis of the deposited data

Results flagged for a closer look

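Values were examined within the 5 WT and within the 6 KO libraries. By Dixon's criterion 5 of 104 groups of values held a library far from the others of its group, which chance alone gives in about 5% of groups. None of the 5 was a value of the 10 mitochondrial genes. mt-Rnr2 stood at 851 CPM in WT 2. The summed adipocyte markers stood at 206 CPM in KO 1 and the summed brown adipocyte markers at 50.7 CPM in the same library. The summed lens markers stood at 142283 CPM in WT 4 and at 26780 CPM in KO 3.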

How the results depend on the processing

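The count of 0 members called between KO and WT (edgeR) was 0 under every alternative run, including DESeq2 and the quasi-likelihood test. Leaving out 1 library, the median log2 fold change of the members ran from -0.28 to -0.06, and that of mt-Nd1 from -0.19 to 0.023, the latter without WT 2. Same-numbered libraries did not all deviate together (r from -0.33 to 0.63 over 5 pairs). Whether they share more than a number is not known. With the replicate number as a block, without KO 6, 0 members were called and the median was -0.14. For the series, 6 to 10 members were called when 1 library was left out, and 0 in the WT libraries alone, where fewer samples were fitted. Of the nuclear subunits 32 were called higher in the WT libraries alone (1.45% of all genes) and 61 to 74 when 1 library was left out. Over all genes, the fits without 1 library called from 2745 of 15716 (without KO 5) to 3909 of 15705 (without WT 4) higher. As a share of the sum of FPKM the members' mouse-number minus age difference was 3.76 percentage points. The series overlapped in that share (11.1% to 15.0% against 7.77% to 11.7%). The settings that left out the 3 lens-containing libraries, took the series as a covariate with other tests, or used 1 genotype alone were chosen after seeing the data. Depth did not limit the members, each with at least 14085 counts per library.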
